A study of Mus musculus with 9 samples.

Results

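Monocytic myeloid-derived suppressor cells (M-MDSCs) are monocyte-like cells that accumulate in tumours and restrain T cells. Transcripts of T cells and natural killer (NK) cells were followed in RNA of sorted M-MDSCs, using 41 genes chosen by symbol from the 54532 genes of the deposited FPKM table (fragments per kilobase of gene, scaled to the depth of each library). The cells came from mice that carried MC38 tumours, grown from a mouse colon carcinoma cell line. There were 3 libraries from LILRB4+/+ SCG2-/- mice, 3 from LILRB4+/+ mice and 3 from WT mice, and all 9 were poly-A selected and kept the strand. The labels do not give the nature of the LILRB4 allele, the mouse strain, age or sex, the sorting gate, or whether animals were pooled, and each of these limits the groups as models. The series title concerns binding of SCG2 to LILRB4, an inhibitory receptor of myeloid cells, and the suppressive function of these cells.

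T cells recognise antigen through the T cell receptor, whose signal is carried into the cell by the CD3 chains and the zeta chain. CD8 T cells and NK cells kill target cells by releasing perforin and granzymes, and both secrete interferon gamma. Regulatory T cells, marked by Foxp3, and inhibitory receptors such as PD-1 hold these responses back inside tumours. The T cell receptor is a hallmark of T cells and not of monocytes. The chains of its complex are therefore used here to describe how much T cell RNA each sorted sample held.

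All 41 members were present at 0.1 FPKM or more in each of the 9 libraries, and all passed the filter on low values (FPKM of at least 0.1 in at least 3 libraries, 19318 genes). The lowest count behind any value was 13 reads, for Ncr1 in LILRB4+/+ replicate 2. Of the members, 39 were also in the deposited count table of 9877 genes, while Ncr1 and Klrb1c were not. Library totals, as counts recovered from FPKM, were 15004944 to 28070495. Scg2, the gene removed in the knockout, had 0 reads in all 3 LILRB4+/+ SCG2-/- libraries, but no more than 1 read in any LILRB4+/+ or WT library either, so it does not check the labels. Lilrb4a, the mouse counterpart of LILRB4, stood at 131, 146 and 157 FPKM in LILRB4+/+ SCG2-/- replicates 1 to 3, at 274, 154 and 160 FPKM in LILRB4+/+ replicates 1 to 3 and at 138, 47.7 and 74.0 FPKM in WT replicates 1 to 3. WT replicate 1 lay close to knockout replicate 1, and the other 2 WT libraries were the lowest of the 9.

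The labelled cell type was checked with 10 monocyte and macrophage markers, of which Cd14 ranged from 756 to 2688 FPKM and Csf1r from 61.6 to 189.6 FPKM over the 9 libraries. Of 7 neutrophil markers, Ly6g was listed at 0 in 7 of the 9 libraries, while Retnlg ranged from 15.2 to 154 FPKM, Hdc from 3.35 to 10.5 FPKM and S100a9 from 0.466 to 17.2 FPKM. Against this monocytic background the 41 members together took 0.189%, 0.348% and 0.352% of all recovered counts in LILRB4+/+ SCG2-/- replicates 1 to 3. They took 0.354%, 0.0530% and 0.249% in LILRB4+/+ replicates 1 to 3, and 0.195%, 0.0535% and 0.0828% in WT replicates 1 to 3. The mean shares were 0.296% ± 0.0932 in LILRB4+/+ SCG2-/-, 0.218% ± 0.153 in LILRB4+/+ and 0.110% ± 0.0747 in WT libraries (SD, n = 3 each), so the group ranges overlapped.

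Libraries of the same group stood apart, and this touches every comparison. LILRB4+/+ replicate 2 was below both other LILRB4+/+ libraries for 41 of 41 members. WT replicate 1 was above both other WT libraries for 40 of 41 members, with Foxp3 the exception. LILRB4+/+ SCG2-/- replicate 1 was below the other 2 knockout libraries for 36 of 41. For 39 of 41 members the 3 lowest libraries were LILRB4+/+ replicate 2, WT replicate 2 and WT replicate 3, and the exceptions were Cd4 and Foxp3. The highest library was LILRB4+/+ replicate 1 for 20 members, LILRB4+/+ SCG2-/- replicate 2 for 10 and replicate 3 for 8, and LILRB4+/+ replicate 3 for 3. Because the samples are bulk RNA, fewer lymphocytes and less RNA of these genes per cell cannot be told apart.

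**Figure D1:**
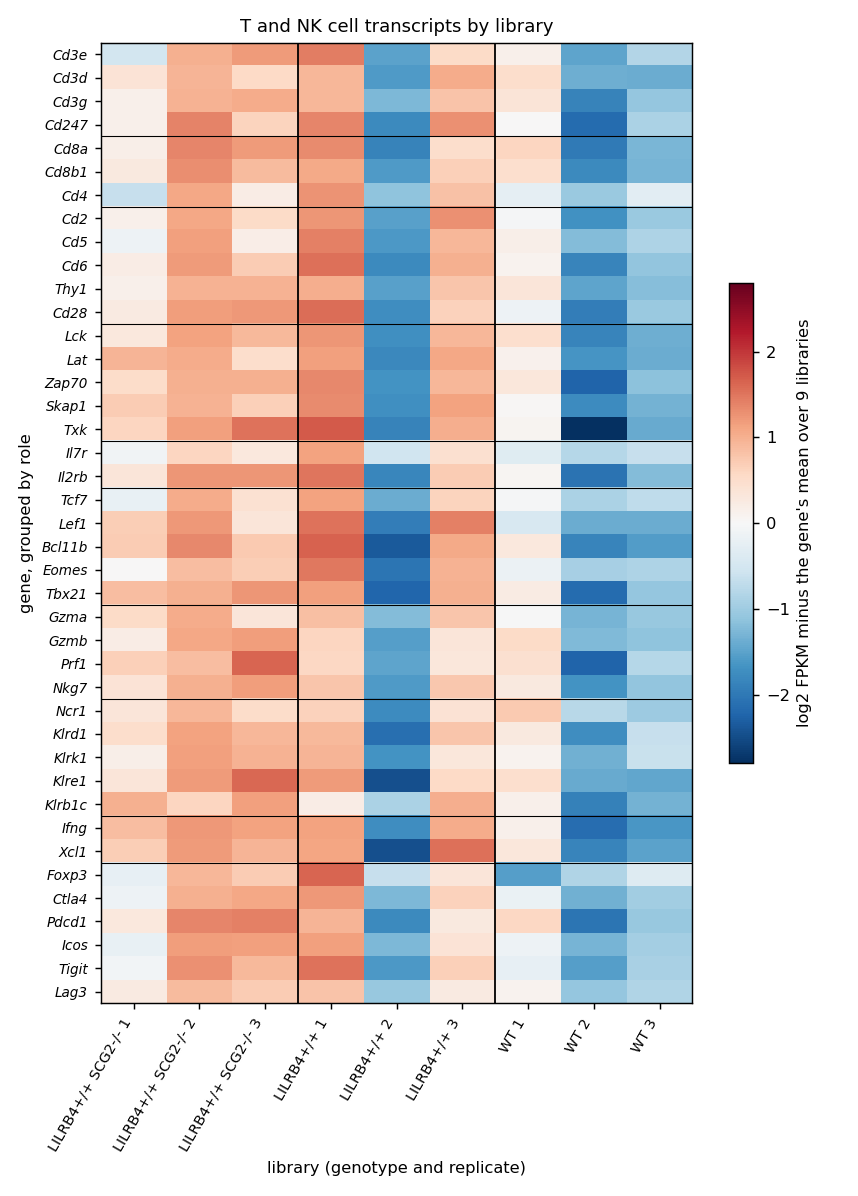
Level of each of the 41 members (rows, grouped by role) in each of the 9 libraries (columns), as log2 FPKM minus the mean of the gene over the 9 libraries. LILRB4+/+ replicate 2, WT replicate 2 and WT replicate 3 are blue for nearly every gene, while the other LILRB4+/+ libraries and the knockout libraries are mostly red.

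The spread between libraries was wider for the members than for most genes. The highest library stood a median of 8.45-fold above the lowest for the 41 members, against 2.12-fold for the 15985 genes that passed the filter and were above 0 in every library. Txk, a Tec family kinase of T cells, had the widest range at 22.8-fold, followed by Klre1 at 16.9-fold and by Xcl1 and Bcl11b at 16.0-fold each. Il7r had the narrowest at 3.84-fold, with Lag3 at 3.92-fold.

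Of the T cell receptor complex, all 4 chains were measured: Cd3e, Cd3d and Cd3g, which form the CD3 dimers, and Cd247, which encodes the zeta chain. Cd3e stood at 2.56, 7.30 and 8.26 FPKM in LILRB4+/+ SCG2-/- replicates 1 to 3, at 9.86, 1.28 and 5.30 FPKM in LILRB4+/+ replicates 1 to 3, and at 4.01, 1.31 and 2.05 FPKM in WT replicates 1 to 3. Cd3d, the most abundant chain per length, stood at 17.0, 25.1 and 19.2 FPKM in LILRB4+/+ SCG2-/-, at 24.6, 4.32 and 26.5 FPKM in LILRB4+/+ and at 18.3, 4.99 and 4.93 FPKM in WT libraries. The same 3 libraries were low for both genes, and WT replicate 1 lay above knockout replicate 1 for both. Cd3g averaged 14.1 ± 4.29 FPKM in LILRB4+/+ SCG2-/-, 11.2 ± 6.72 in LILRB4+/+ and 5.58 ± 4.43 in WT libraries (SD, n = 3 each). Cd247 averaged 4.37 ± 1.92 FPKM in LILRB4+/+ SCG2-/-, 4.39 ± 3.19 in LILRB4+/+ and 1.48 ± 0.985 in WT libraries.

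The CD3 genes lie in a cluster on chromosome 9 (GRCm38), where Cd3d (44981786 to 44987339, plus strand) and Cd3g (44969572 to 44980431, minus strand) start 1354 bases apart in opposite directions and Cd3e (44998740 to 45009627, minus strand) follows. Their levels moved together over the libraries, so the 250 bases before each RefSeq start (GRCm38.p6) are shown. Capitals mark matches, on either strand, to 5 short motifs that were searched separately and may overlap. For the ETS factors, a family that includes many lymphocyte regulators, the letters AGGAAG were used. For the RUNX factors, which act throughout the blood lineages, the letters TGTGGT were used. For the TCF and LEF factors, the products of Tcf7 and Lef1, the letters TCAAAG were used. For the T-box factors, the products of Tbx21 and Eomes, the letters AGGTGT were used. For the TATA box, which lies near the start of many genes, the letters TATAAA were used. The stretches cover chr9:44981536-44981785 on the plus strand for Cd3d, chr9:44980432-44980681 on the minus strand for Cd3g and chr9:45009612-45009861 on the minus strand for Cd3e.
Cd3d: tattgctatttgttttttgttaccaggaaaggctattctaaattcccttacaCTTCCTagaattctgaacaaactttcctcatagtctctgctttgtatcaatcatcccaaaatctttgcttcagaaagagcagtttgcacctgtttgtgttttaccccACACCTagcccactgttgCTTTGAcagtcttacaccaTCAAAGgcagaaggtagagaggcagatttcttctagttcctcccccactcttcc
Cd3g: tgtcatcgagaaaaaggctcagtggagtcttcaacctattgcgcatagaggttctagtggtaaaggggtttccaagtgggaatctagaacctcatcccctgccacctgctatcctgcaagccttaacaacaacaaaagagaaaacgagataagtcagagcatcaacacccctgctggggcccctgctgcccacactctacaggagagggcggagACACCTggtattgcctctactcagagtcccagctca
Cd3e: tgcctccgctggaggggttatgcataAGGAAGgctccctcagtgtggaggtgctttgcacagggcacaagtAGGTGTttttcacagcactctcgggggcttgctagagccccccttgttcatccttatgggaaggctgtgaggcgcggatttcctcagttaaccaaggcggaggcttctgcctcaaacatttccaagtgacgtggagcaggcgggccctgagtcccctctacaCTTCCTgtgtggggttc

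All 3 CD3 promoters held the T-box letters, Cd3d and Cd3e also held the ETS letters, and Cd3d alone of them held the TCF letters. RefSeq gave 41 promoters for 30 of the 41 members. The ETS letters were in 51.2% of these promoters against 29.5% of all 32851 promoters of this length, the RUNX letters in 34.1% against 14.0%, and the T-box letters in 22.0% against 11.8%. The TCF letters were in 12.2% against 13.8% and the TATA letters in 9.76% against 12.4%. These are matches of letters and no sites of binding.

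The coreceptors bind the antigen-presenting molecule beside the receptor, CD8 on MHC class I and CD4 on MHC class II. Cd8a stood at 15.0, 34.8 and 31.0 FPKM in LILRB4+/+ SCG2-/- replicates 1 to 3, at 33.5, 3.69 and 19.0 FPKM in LILRB4+/+ replicates 1 to 3, and at 20.5, 3.41 and 5.58 FPKM in WT replicates 1 to 3. Cd8b1, its partner chain, averaged 25.0 ± 8.60 FPKM in LILRB4+/+ SCG2-/-, 18.2 ± 12.3 in LILRB4+/+ and 9.45 ± 8.16 in WT libraries (SD, n = 3 each). Cd4 was far lower per length, at 1.25, 4.13 and 2.27 FPKM in LILRB4+/+ SCG2-/-, 4.65, 0.898 and 3.48 FPKM in LILRB4+/+ and 1.64, 0.949 and 1.60 FPKM in WT libraries. For Cd4 knockout replicate 1 lay below 2 of the 3 WT libraries. The level of Cd8a over that of Cd4 was 12.0, 8.44 and 13.7 in LILRB4+/+ SCG2-/-, 7.21, 4.11 and 5.45 in LILRB4+/+ and 12.5, 3.59 and 3.48 in WT libraries. Every knockout library was above every LILRB4+/+ library in this ratio, while WT replicate 1 lay within the knockout range. It was one of several ratios formed and is a description only. Cd8b1 over Cd4 separated these genotypes too, whereas Cd3e over Ncr1, Foxp3 over Cd4 and Prf1 over Cd8a did not.

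The 5 accessory surface molecules were Thy1, a surface protein of mouse T cells, the adhesion receptor Cd2, Cd5 and Cd6, which dampen receptor signals, and Cd28, the main costimulatory receptor. Thy1 was the most abundant, at 55.2 ± 16.0 FPKM in LILRB4+/+ SCG2-/-, 44.8 ± 29.4 in LILRB4+/+ and 22.6 ± 16.5 in WT libraries (SD, n = 3 each). Cd28 averaged 6.88 ± 2.24 FPKM in LILRB4+/+ SCG2-/-, 5.79 ± 4.79 in LILRB4+/+ and 1.98 ± 1.17 in WT libraries. Cd2, Cd5 and Cd6 had their group means highest in LILRB4+/+. Cd5 averaged 8.79 ± 4.31 FPKM in LILRB4+/+ SCG2-/-, 10.1 ± 7.36 in LILRB4+/+ and 4.35 ± 2.30 in WT libraries, and Cd6 averaged 23.9 ± 7.96 FPKM in LILRB4+/+ SCG2-/-, 24.3 ± 18.6 in LILRB4+/+ and 8.54 ± 5.90 in WT libraries. Cd2 stood at 30.2 ± 10.1 FPKM in LILRB4+/+ SCG2-/-, 33.0 ± 22.7 in LILRB4+/+ and 11.5 ± 6.79 in WT libraries.

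Inside the cell, Lck phosphorylates the CD3 and zeta chains, Zap70 binds to them, and Lat gathers the downstream enzymes. Lck stood at 22.1, 39.1 and 33.6 FPKM in LILRB4+/+ SCG2-/- replicates 1 to 3, at 42.4, 5.44 and 34.1 FPKM in LILRB4+/+ replicates 1 to 3, and at 24.8, 4.98 and 6.92 FPKM in WT replicates 1 to 3. Zap70 averaged 21.8 ± 3.98 FPKM in LILRB4+/+ SCG2-/-, 19.2 ± 13.9 in LILRB4+/+ and 7.76 ± 6.65 in WT libraries (SD, n = 3 each). Lat averaged 12.7 ± 2.39 FPKM in LILRB4+/+ SCG2-/-, 10.8 ± 7.61 in LILRB4+/+ and 4.20 ± 3.02 in WT libraries. For each of these genes LILRB4+/+ replicate 2 and WT replicates 2 and 3 were far below the other 6 libraries, and LILRB4+/+ had the largest SD. Skap1, an adaptor that links the receptor to integrins, averaged 2.59 ± 0.297 FPKM in LILRB4+/+ SCG2-/-, 2.47 ± 1.76 in LILRB4+/+ and 0.852 ± 0.582 in WT libraries. Txk averaged 5.35 ± 1.65 FPKM in LILRB4+/+ SCG2-/-, 4.55 ± 3.71 in LILRB4+/+ and 1.27 ± 1.14 in WT libraries.

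Of the cytokine receptors, Il2rb, the chain shared by the IL-2 and IL-15 receptors of T and NK cells, was the most abundant of the 41 members. It stood at 100.2, 188 and 188 FPKM in LILRB4+/+ SCG2-/- replicates 1 to 3, at 224, 22.6 and 131 FPKM in LILRB4+/+ replicates 1 to 3, and at 83.2, 19.0 and 34.4 FPKM in WT replicates 1 to 3. Every knockout library was above every WT library, and LILRB4+/+ held both the highest library and one of the lowest. Il7r, the receptor for the T cell survival factor IL-7, stood at 22.7, 37.2 and 29.9 FPKM in LILRB4+/+ SCG2-/-, at 53.6, 16.6 and 33.3 FPKM in LILRB4+/+ and at 19.3, 14.0 and 15.5 FPKM in WT libraries. LILRB4+/+ replicate 2 was the only library of either LILRB4+/+ genotype that overlapped the WT range of Il7r.

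Tcf7, Lef1 and Bcl11b are transcription factors of the T lineage, of which Tcf7 marks naive and memory-like cells, and Eomes and Tbx21 are T-box factors of cytotoxic T and NK cells. Tcf7 stood at 24.2, 57.2 and 37.3 FPKM in LILRB4+/+ SCG2-/- replicates 1 to 3, at 61.0, 10.6 and 43.0 FPKM in LILRB4+/+ replicates 1 to 3, and at 27.4, 15.0 and 16.8 FPKM in WT replicates 1 to 3. Tbx21 averaged 14.6 ± 1.97 FPKM in LILRB4+/+ SCG2-/-, 10.5 ± 7.86 in LILRB4+/+ and 4.47 ± 3.53 in WT libraries (SD, n = 3 each). Eomes averaged 5.33 ± 1.51 FPKM in LILRB4+/+ SCG2-/-, 6.04 ± 4.72 in LILRB4+/+ and 2.37 ± 0.747 in WT libraries. Lef1 averaged 1.72 ± 0.534 FPKM in LILRB4+/+ SCG2-/-, 1.91 ± 1.44 in LILRB4+/+ and 0.496 ± 0.2003 in WT libraries. Bcl11b averaged 1.91 ± 0.494 FPKM in LILRB4+/+ SCG2-/-, 1.77 ± 1.46 in LILRB4+/+ and 0.601 ± 0.521 in WT libraries.

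The cytotoxic granule was read from Gzmb and Gzma, serine proteases that start cell death, Prf1, the pore-forming perforin, and Nkg7, a granule membrane protein. Gzmb stood at 61.0, 111 and 119 FPKM in LILRB4+/+ SCG2-/- replicates 1 to 3, at 79.7, 18.1 and 66.5 FPKM in LILRB4+/+ replicates 1 to 3, and at 76.7, 22.3 and 24.1 FPKM in WT replicates 1 to 3. Prf1 stood at 13.7, 15.7 and 26.6 FPKM in LILRB4+/+ SCG2-/-, at 12.7, 3.10 and 10.7 FPKM in LILRB4+/+ and at 11.7, 1.80 and 4.95 FPKM in WT libraries. Perforin was thus higher in each knockout library than in each other library, while for Gzmb knockout replicate 1 lay below LILRB4+/+ replicates 1 and 3 and WT replicate 1. Nkg7 stood at 56.9, 86.7 and 98.3 FPKM in LILRB4+/+ SCG2-/-, at 74.8, 14.6 and 74.2 FPKM in LILRB4+/+ and at 52.6, 13.6 and 20.4 FPKM in WT libraries. Gzma averaged 25.8 ± 6.66 FPKM in LILRB4+/+ SCG2-/-, 21.3 ± 12.4 in LILRB4+/+ and 10.1 ± 5.21 in WT libraries (SD, n = 3 each).

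Both secreted cytokines were high in the knockout libraries and similarly high in LILRB4+/+ replicates 1 and 3. Ifng, which encodes interferon gamma, stood at 17.7, 22.7 and 21.2 FPKM in LILRB4+/+ SCG2-/- replicates 1 to 3, at 21.5, 2.93 and 20.2 FPKM in LILRB4+/+ replicates 1 to 3, and at 10.8, 2.22 and 3.15 FPKM in WT replicates 1 to 3. Every knockout library was above every WT library. Xcl1, a chemokine that attracts cross-presenting dendritic cells, stood at 60.2, 85.2 and 72.1 FPKM in LILRB4+/+ SCG2-/-, at 80.6, 6.76 and 108 FPKM in LILRB4+/+ and at 46.7, 10.3 and 13.3 FPKM in WT libraries.

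The promoters of the killing genes and of interferon gamma are shown beside these levels, since these genes encode the granule proteins and the cytokine just described. They are 250 bases before the RefSeq start (GRCm38.p6) with the same motifs in capitals, at chr14:56262335-56262584 on the minus strand for Gzmb, chr10:61297586-61297835 on the plus strand for Prf1 and chr10:118440796-118441045 on the plus strand for Ifng.
Gzmb: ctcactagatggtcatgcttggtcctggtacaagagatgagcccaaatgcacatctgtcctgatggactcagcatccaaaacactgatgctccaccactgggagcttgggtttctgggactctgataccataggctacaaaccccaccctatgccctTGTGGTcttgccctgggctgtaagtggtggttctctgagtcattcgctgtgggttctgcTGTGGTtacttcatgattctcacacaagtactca
Prf1: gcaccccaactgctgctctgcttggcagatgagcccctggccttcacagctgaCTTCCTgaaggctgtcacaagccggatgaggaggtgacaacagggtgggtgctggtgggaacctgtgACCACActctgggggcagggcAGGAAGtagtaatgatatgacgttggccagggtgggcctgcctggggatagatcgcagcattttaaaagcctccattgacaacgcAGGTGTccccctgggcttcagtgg
Ifng: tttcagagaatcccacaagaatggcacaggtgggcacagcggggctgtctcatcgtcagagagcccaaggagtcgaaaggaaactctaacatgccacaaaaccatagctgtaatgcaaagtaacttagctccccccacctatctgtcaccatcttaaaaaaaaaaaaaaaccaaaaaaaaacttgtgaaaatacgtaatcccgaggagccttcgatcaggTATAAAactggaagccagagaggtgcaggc

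Gzmb held the RUNX letters at 2 places, starting 34 and 93 bases before the RefSeq start. In the gene positions of the deposited data Gzmb starts further downstream, at 56262260 on chromosome 14. Prf1 held the RUNX letters once, the ETS letters at 2 places and the T-box letters once, 24 bases before its start. Ifng held the TATA letters 30 bases before its start and none of the other 4 motifs.

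NK cells were read from Ncr1, which encodes the activating receptor NKp46, from Klrk1 (NKG2D), which CD8 T cells also carry, and from Klrd1 (CD94), Klre1 and Klrb1c, which belong to the lectin-like NK receptors. Ncr1 stood at 1.53, 2.31 and 1.74 FPKM in LILRB4+/+ SCG2-/- replicates 1 to 3, at 1.90, 0.356 and 1.59 FPKM in LILRB4+/+ replicates 1 to 3, and at 2.0, 0.702 and 0.599 FPKM in WT replicates 1 to 3. Klrk1 stood at 5.89, 11.7 and 10.3 FPKM in LILRB4+/+ SCG2-/-, at 10.3, 1.67 and 6.54 FPKM in LILRB4+/+ and at 5.68, 2.09 and 3.44 FPKM in WT libraries. For Ncr1, WT replicate 1 lay above 2 of the 3 knockout libraries, and for Klrk1 every knockout library was above every WT library. Klrd1 was the most abundant of the 5, at 28.6 ± 6.24 FPKM in LILRB4+/+ SCG2-/-, 19.9 ± 14.2 in LILRB4+/+ and 11.1 ± 7.14 in WT libraries (SD, n = 3 each). Klre1 averaged 6.14 ± 2.52 FPKM in LILRB4+/+ SCG2-/-, 3.68 ± 2.98 in LILRB4+/+ and 1.99 ± 1.65 in WT libraries. Klrb1c averaged 3.39 ± 0.648 FPKM in LILRB4+/+ SCG2-/-, 2.19 ± 1.32 in LILRB4+/+ and 1.05 ± 0.794 in WT libraries. Lectin-like receptors and granzymes have near copies, and reads may be split unevenly between such genes.

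The last group held Foxp3, the factor that defines regulatory T cells, the inhibitory receptors Ctla4, Pdcd1 (PD-1), Tigit and Lag3, and the costimulatory receptor Icos. Foxp3 stood at 1.62, 3.60 and 3.10 FPKM in LILRB4+/+ SCG2-/- replicates 1 to 3, at 5.86, 1.20 and 2.41 FPKM in LILRB4+/+ replicates 1 to 3, and at 0.655, 1.05 and 1.49 FPKM in WT replicates 1 to 3. It was the only member for which WT replicate 1, the library richest in T and NK transcripts among WT, was the lowest of the 9. The Foxp3 gene overlaps Ccdc22 and Gm36995 on the other strand. Another 9 members overlap a gene on the other strand, namely Cd3e, Cd247, Zap70, Tcf7, Lef1, Eomes, Skap1, Txk and Xcl1. Whether the counting used the strand is not given in the sources used here, so the reads of all 10 may include those of their neighbours. Pdcd1 stood at 35.2, 73.7 and 76.9 FPKM in LILRB4+/+ SCG2-/-, at 55.3, 8.34 and 35.0 FPKM in LILRB4+/+ and at 43.3, 7.0 and 13.7 FPKM in WT libraries. Tigit averaged 55.1 ± 23.6 FPKM in LILRB4+/+ SCG2-/-, 49.9 ± 39.9 in LILRB4+/+ and 18.0 ± 8.04 in WT libraries (SD, n = 3 each). For Ctla4 the means were 47.9 ± 19.0 FPKM in LILRB4+/+ SCG2-/-, 40.9 ± 27.2 in LILRB4+/+ and 17.0 ± 7.18 in WT libraries, and for both genes every knockout library was above every WT library. Icos averaged 29.2 ± 13.0 FPKM in LILRB4+/+ SCG2-/-, 21.7 ± 14.9 in LILRB4+/+ and 10.1 ± 4.37 in WT libraries. Lag3 averaged 23.0 ± 4.87 FPKM in LILRB4+/+ SCG2-/-, 16.7 ± 9.27 in LILRB4+/+ and 10.3 ± 4.84 in WT libraries.

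**Figure D2:**
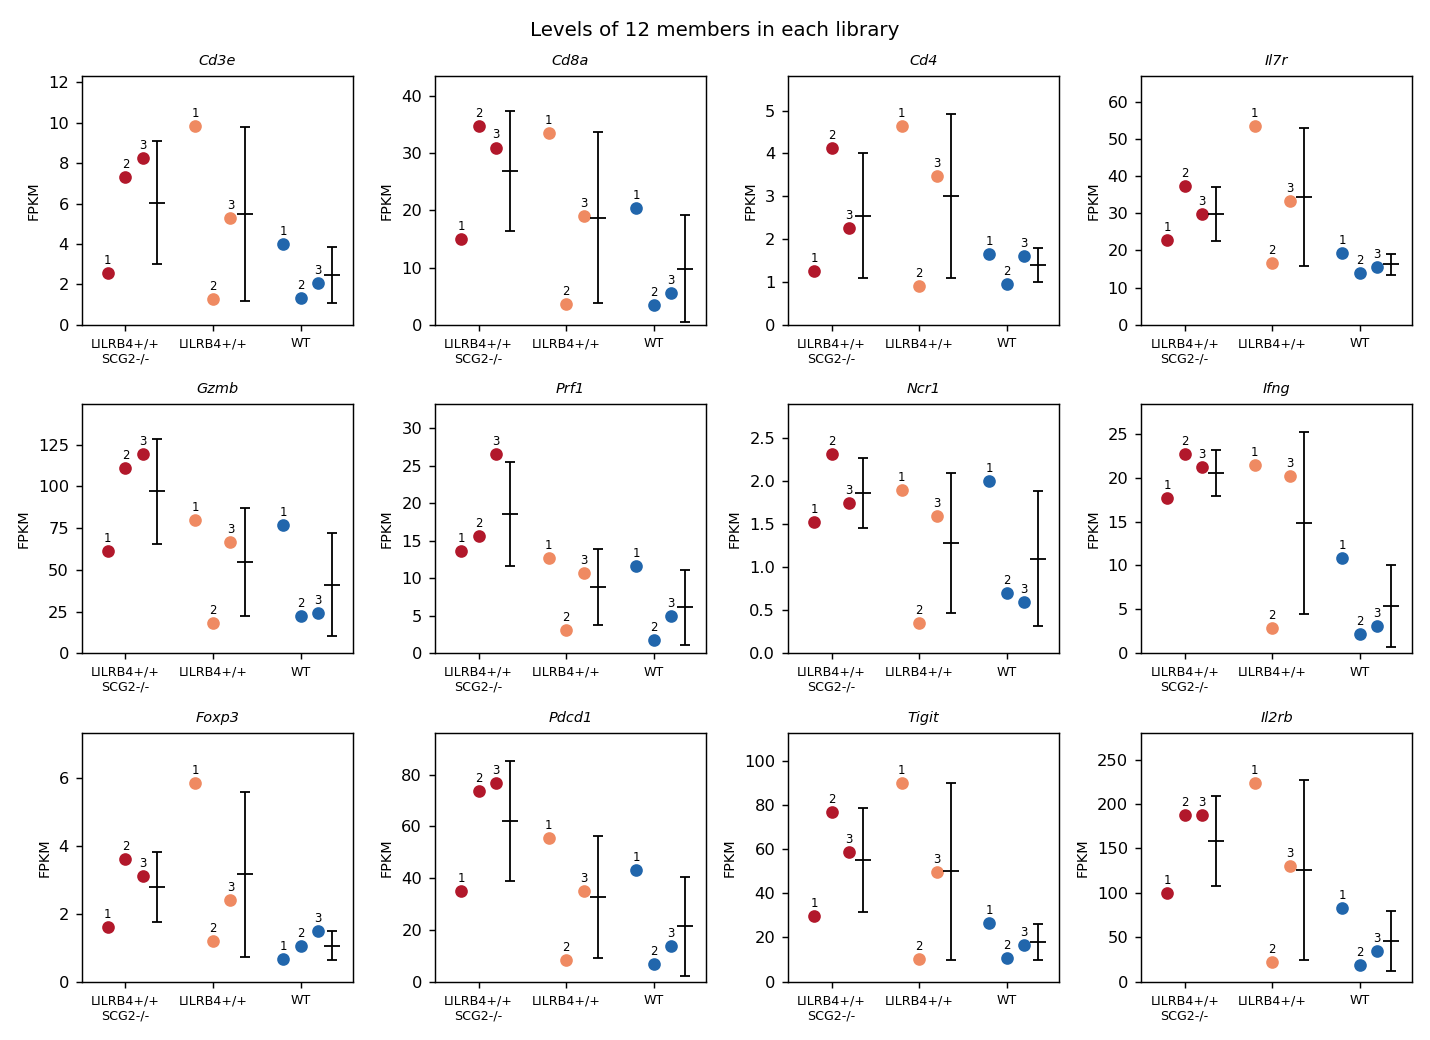
FPKM of 12 members in each library (points, numbered by replicate) with the mean and SD of each group (bars, n = 3). LILRB4+/+ replicate 2 and WT replicates 2 and 3 lie low in most panels, and knockout replicate 1 lies lowest within its own group. For Prf1 all 3 knockout libraries lie above the other 6.

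The LILRB4+/+ against WT comparison asks what the LILRB4 genotype changes. Every one of the 41 members had a higher mean FPKM in LILRB4+/+ than in WT, against 52.2% of all genes past the filter, and the median log2 difference of the members was 0.94, against 0.02 for all genes. None passed either test: limma called 0 of 41 members, where it called 0.233% of all genes, and edgeR on the deposited counts called 0 of 39, where it called 2.25%. DESeq2 on the same counts, run as an alternative, called 2 of 39, Il7r and Foxp3, where it called 6.2% of all genes higher. At an unadjusted p under 0.05 limma had 2 of 41 members higher (8.55% of all genes) and edgeR 3 of 39 (11.3% of all genes), shares below those of all genes. The differences closest to the threshold were those of Il7r, at a log2 difference of 0.94 (SE 0.38, limma adjusted p = 0.289), and Foxp3, at 1.27 (SE 0.54, limma adjusted p = 0.304). The T cell receptor chain Cd3e differed by 0.86 (SE 0.76, limma adjusted p = 0.615), and Cd8a by 0.86 (SE 0.88, limma adjusted p = 0.673). Ncr1 differed by 0.13 with a 95% interval of -1.21 to 1.46 (limma adjusted p = 0.934).

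This comparison moved with LILRB4+/+ replicate 2 and with WT replicate 1. With all libraries, 0 of 41 members had every LILRB4+/+ library above every WT library, where 10.04% of all genes did. Without LILRB4+/+ replicate 2 that held for 36 of 41 members, where 21.6% of all genes did. The median log2 difference of the members was then 1.75, and edgeR called 17 of 39 members higher, where it called 5.48% of all genes higher. These 17 were Cd247, Cd2, Cd5, Cd6, Lat, Il7r, Tcf7, Lef1, Bcl11b, Gzma, Eomes, Foxp3, Ctla4, Tigit, Cd28, Skap1 and Xcl1, with log2 differences of 1.38 for Tcf7 to 2.45 for Lef1. Limma called 0 of 41 without that library, where it called 0.0263% of all genes higher, and had 37 of 41 at an unadjusted p under 0.05, where 12.9% of all genes were. Without WT replicate 1 the median difference was 1.42 with FPKM and 1.86 with counts, and no member was called by either tool. At an unadjusted p under 0.05 edgeR then had 25 of 39 members higher, where 1262 of 9877 genes were. Limma had 5 of 41, where 1784 of 18955 genes were.

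The LILRB4+/+ SCG2-/- against LILRB4+/+ comparison asks what the loss of SCG2 adds on the LILRB4+/+ genotype. The mean FPKM was higher in LILRB4+/+ SCG2-/- for 32 of 41 members, against 50.02% of all genes, and the median log2 difference of the members was 0.62 with FPKM and 0.28 with counts. Limma called 0 of 41 members (0.0104% of all genes) and edgeR 0 of 39 (0.0% of all genes), and neither had a member higher at an unadjusted p under 0.05 (2.8% of all genes with limma, 4.88% with edgeR). Median differences by role on the log2(FPKM + 0.1) scale are a description only. They were 0.94 for the 4 cytotoxic granule genes, 0.89 for the 2 secreted cytokines and 0.86 for the 5 NK receptors. The 3 coreceptors had 0.77, the 5 receptor signalling genes 0.62 and the 6 genes of the Foxp3 and inhibitory receptor group 0.56. The 4 T cell receptor chains and the 5 accessory surface molecules had 0.45 each. The 2 cytokine receptors had 0.36 and the 5 transcription factors 0.34. Gzmb differed by 1.02 (SE 0.65, limma adjusted p = 0.733), Pdcd1 by 1.20 (SE 0.82, limma adjusted p = 0.759) and Cd4 by -0.11 (SE 0.60, limma adjusted p = 0.977). Intervals were wide: that of Cd3e ran from -1.36 to 2.12 and that of Foxp3 from -1.20 to 1.25 on the log2 scale.

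Prf1 was the 1 member of 41 whose knockout libraries all lay above all LILRB4+/+ libraries, where 6.17% of all genes did, and it is singled out here after its values were seen. Without LILRB4+/+ replicate 2 the median log2 difference of the members was -0.28 with FPKM, with 11 of 41 positive, and -0.22 with counts, with 13 of 39 positive. The sign of the median thus turned without this 1 library.

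LILRB4+/+ SCG2-/- against WT had the largest median log2 difference of the 3 comparisons, at 1.62 over the 41 members, against 0.00 over all genes. Members with a higher mean in LILRB4+/+ SCG2-/- numbered 41 of 41, against 51.0% of all genes, yet limma called 0 of 41 and edgeR 0 of 39, where both called 0.0% of all genes. At an unadjusted p under 0.05 limma had 15 of 41 members higher (6.56% of all genes) and edgeR 9 of 39 (8.47% of all genes). These counts moved with single libraries. Limma had 38 without LILRB4+/+ replicate 2 (8.8% of all genes) and 31 without WT replicate 1 (8.95%), but 2 without knockout replicate 2 (3.62%), 2 without knockout replicate 3 (4.2%), 1 without WT replicate 2 (2.95%) and 2 without WT replicate 3 (4.42%). EdgeR had 39 without LILRB4+/+ replicate 2 (11.5%) and 33 without WT replicate 1 (12.2%), but 5 without LILRB4+/+ replicate 3 (7.12%) and 1 without WT replicate 3 (5.51%). It had 0 without knockout replicate 2 (4.18%), knockout replicate 3 (4.41%) or WT replicate 2 (3.41%). Ifng had a log2 difference of 2.24 (SE 0.80, limma adjusted p = 0.422) and Il2rb of 2.0 (SE 0.84, limma adjusted p = 0.424). For Nkg7 it was 1.68 (SE 0.70, limma adjusted p = 0.424), for Gzmb 1.43 (SE 0.65, limma adjusted p = 0.432) and for Cd4 0.71 (SE 0.60, limma adjusted p = 0.630).

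Every LILRB4+/+ SCG2-/- library was above every WT library for 26 of 41 members, where that held for 10.6% of all genes. The 15 others were Cd3e, Cd3d, Cd3g, Cd8a, Cd8b1, Cd4, Cd5, Lck, Thy1, Tcf7, Gzmb, Ncr1, Klre1, Pdcd1 and Icos. The count was 40 of 41 without WT replicate 1, where 19.2% of all genes met it, and 40 of 41 without LILRB4+/+ SCG2-/- replicate 1, where 20.4% did. The 3 comparisons share libraries, since each group enters a pair of them, so their values are not independent of each other.

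**Figure D3:**
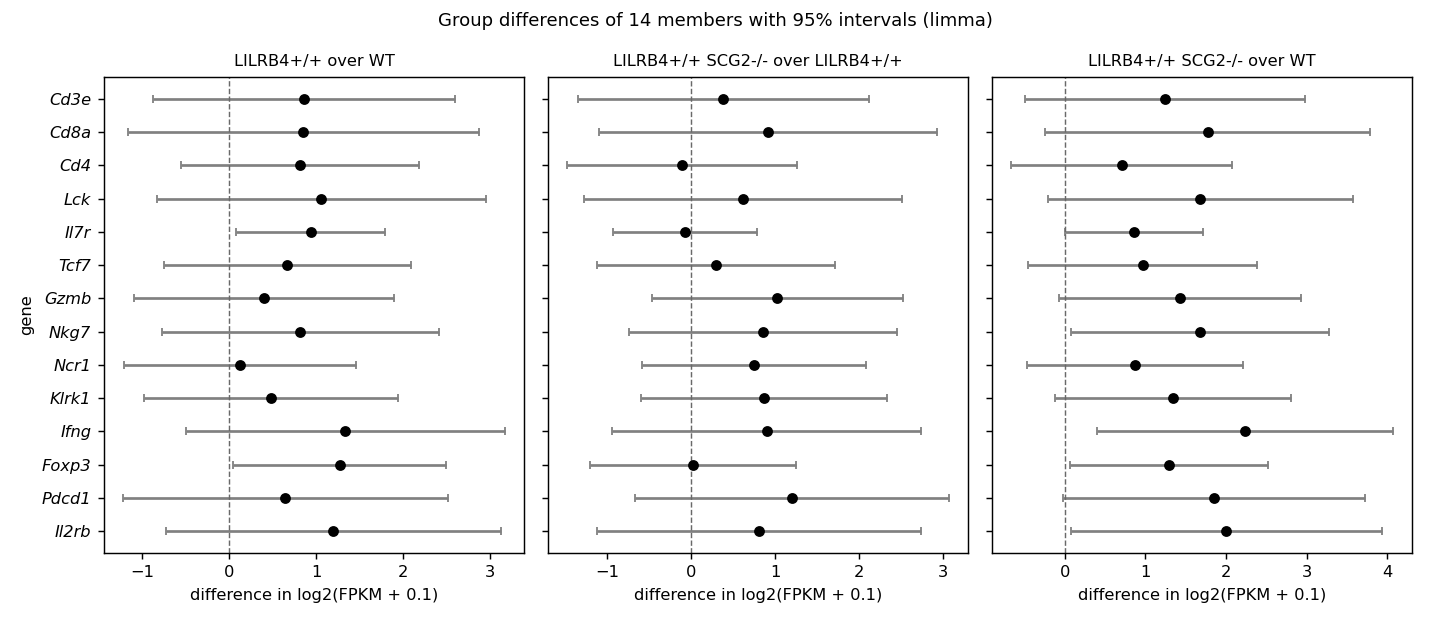
Differences between groups in log2(FPKM + 0.1) for 14 members in the 3 comparisons, with 95% intervals from limma (points and bars); the dashed line is 0. Nearly all points lie right of 0 and most intervals include it, and none passed the adjusted threshold.

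To see which members departed from the shared order of the libraries, each of the 37 members outside the receptor complex was divided by the summed FPKM of the 4 receptor chains in the same library. This is a description, and the genes are named after their values were seen. The ratio of Thy1 was nearly level, at 1.16, 1.17 and 1.34 in LILRB4+/+ SCG2-/-, 1.18, 1.17 and 1.08 in LILRB4+/+ and 1.17, 1.29 and 1.18 in WT libraries. For 7 of the 37 (Cd8b1, Gzmb, Nkg7, Klrd1, Klrk1, Ifng and Pdcd1) every LILRB4+/+ SCG2-/- library was above every LILRB4+/+ library, where 0.989% of all genes were, and for 0 of the 37 every such library was below (2.88% of all genes). Against WT, 5 of the 37 (Ifng, Skap1, Il2rb, Txk and Xcl1) were above in every knockout library, where 0.797% of all genes were, and Ncr1 was below, as 23.7% of all genes were. The summed chains stood at 9.76 FPKM in LILRB4+/+ replicate 2 and at 9.13 and 12.2 FPKM in WT replicates 2 and 3, against 31.5 to 56.6 FPKM elsewhere. Genes that do not follow these chains thus have high ratios in those libraries. The shares of all genes given for these ratios are set in part by the divisor and are no baseline for the members.

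Interferon gamma was high for the amount of receptor transcripts in the knockout libraries. Its ratio was 0.560, 0.412 and 0.440 in LILRB4+/+ SCG2-/-, 0.380, 0.300 and 0.386 in LILRB4+/+ and 0.305, 0.243 and 0.258 in WT libraries, and all 3 knockout values were above the other 6. The Gzmb ratio was 1.94, 2.01 and 2.48 in LILRB4+/+ SCG2-/-, 1.41, 1.85 and 1.27 in LILRB4+/+ and 2.16, 2.44 and 1.97 in WT libraries. Thus the LILRB4+/+ libraries had the lowest granzyme B for their receptor transcripts, and the knockout and WT ranges overlapped. Gzmb and Ncr1 were the 2 of 37 below every WT library in all LILRB4+/+ libraries, where 2.17% of all genes were, and 0 of 37 were above (0.818% of all genes).

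The Pdcd1 ratio was 1.12, 1.34 and 1.59 in LILRB4+/+ SCG2-/-, 0.978, 0.855 and 0.670 in LILRB4+/+ and 1.22, 0.767 and 1.13 in WT libraries. For Ncr1 it was 0.0484, 0.0420 and 0.0361 in LILRB4+/+ SCG2-/-, 0.0335, 0.0364 and 0.0305 in LILRB4+/+ and 0.0564, 0.0768 and 0.0491 in WT libraries, so the WT libraries had the most of this NK receptor for their T cell receptor transcripts. The Il7r ratio was highest in the libraries poor in T and NK transcripts, at 1.70 in LILRB4+/+ replicate 2 and 1.53 and 1.27 in WT replicates 2 and 3, against 0.543 to 0.947 in the other 6 libraries. For Foxp3 it was 0.0513, 0.0653 and 0.0643 in LILRB4+/+ SCG2-/-, 0.104, 0.123 and 0.0460 in LILRB4+/+ and 0.0185, 0.115 and 0.122 in WT libraries. No group was separate for Foxp3, and WT replicate 1 was the lowest.

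**Figure D4:**
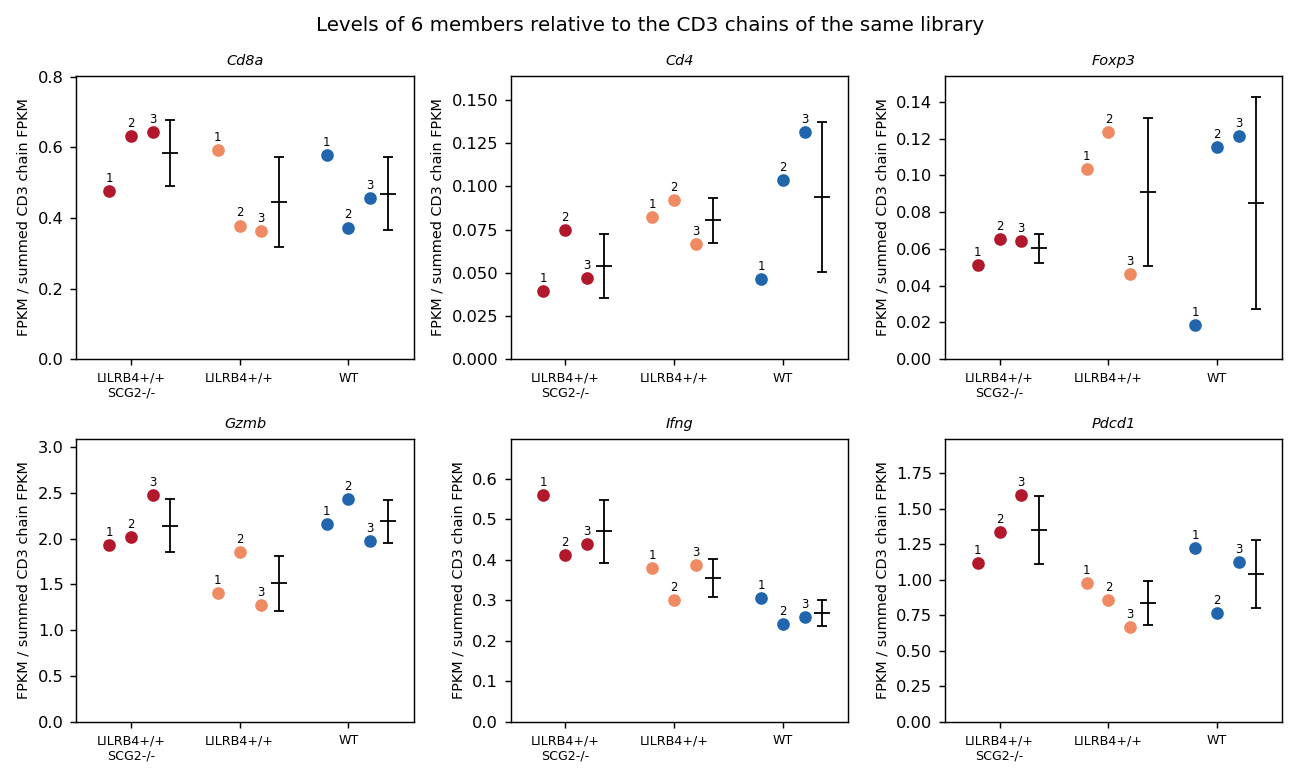
FPKM of 6 members divided by the summed FPKM of the 4 receptor complex chains in the same library (points, numbered by replicate), with the mean and SD of each group (bars, n = 3). The 3 knockout libraries are above the other 6 for Ifng, and the 3 LILRB4+/+ libraries are below the other 6 for Gzmb.

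Other genes of lymphocytes followed the same libraries. All 7 constant segments of the T cell receptor had the same 3 lowest libraries as the members. So did 22 of 25 other T cell genes and 18 of 20 other NK and cytotoxic genes. Limma called no gene of these lists in any comparison. EdgeR tested no constant segment, and it called none of the 21 other T cell and 16 other NK and cytotoxic genes tested. The constant segments summed to 231, 361 and 291 FPKM in LILRB4+/+ SCG2-/-, to 404, 49.6 and 346 FPKM in LILRB4+/+ and to 163, 60.5 and 66.6 FPKM in WT libraries. Of 9 other regulatory and exhaustion genes 5 had these 3 lowest libraries, and the other 4 were Havcr2, Cd101, Entpd1 and Il10ra.

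Sums of some markers of other cells moved with the members. The summed B cell markers, mostly immunoglobulin transcripts, were 410, 346 and 1132 FPKM in LILRB4+/+ SCG2-/-, 1069, 51.6 and 1085 FPKM in LILRB4+/+ and 824, 102 and 150.45 FPKM in WT libraries, and Ms4a1, which encodes CD20, stayed at 0.342 FPKM or less. Plasmacytoid dendritic cell markers summed to 30.8, 34.4 and 30.9 FPKM in LILRB4+/+ SCG2-/-, 52.4, 12.0 and 48.7 FPKM in LILRB4+/+ and 26.6, 11.5 and 15.7 FPKM in WT libraries. The same 3 libraries had the lowest sums of both lists, and they were the 3 lowest for 4 of 11 B cell and 5 of 8 plasmacytoid dendritic cell markers singly. Monocyte and macrophage markers had another order, at 2361, 1795 and 1171 FPKM in LILRB4+/+ SCG2-/-, 2635, 3969 and 3080 FPKM in LILRB4+/+ and 1634, 3717 and 2306 FPKM in WT libraries, with the highest sums in LILRB4+/+ replicate 2 and WT replicate 2. None of the 10 monocyte and macrophage markers and none of the 7 fibroblast markers had the 3 lowest libraries of the members, and fibroblast sums stayed between 173 and 309 FPKM.

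Dendritic cell, mast cell and endothelial sums were also lowest in LILRB4+/+ replicate 2 and WT replicates 2 and 3. Singly, these were the 3 lowest libraries for only 3 of 8 dendritic cell, 2 of 6 mast cell and 1 of 6 endothelial markers. Fscn1 and Cd209a were highest in WT replicate 2, and Batf3 in LILRB4+/+ replicate 2. The sums of the 8 dendritic cell markers ran from 94.8 to 133 FPKM in these 3 libraries and from 144 to 223 FPKM in the other 6. Neutrophil markers went another way, with sums of 41.9, 32.8 and 27.2 FPKM in LILRB4+/+ SCG2-/-, 69.6, 205 and 96.0 FPKM in LILRB4+/+ and 28.7, 57.2 and 26.5 FPKM in WT libraries. Every LILRB4+/+ library was thus above the other 6 in this sum, which was mostly Retnlg. Singly this held for Retnlg, Hdc and Cxcr2, but not for S100a8, S100a9, Mmp8 or Ly6g. S100a9 was lowest in LILRB4+/+ replicate 1, at 0.466 FPKM. In LILRB4+/+ against WT the neutrophil-list gene Hdc, which encodes histidine decarboxylase, was higher by 1.28 (SE 0.20, limma adjusted p = 0.0498) and by 1.26 (SE 0.20, edgeR adjusted p = 0.0214). EdgeR also called Retnlg higher by 1.97 (SE 0.40, adjusted p = 0.0406) and the dendritic cell receptor gene Xcr1 by 1.69 (SE 0.32, adjusted p = 0.0323). No other tested gene of the marker lists was called in any comparison. EdgeR tested only those in the deposited count table, which held 1 of 11 B cell markers. The part of other cell types in the members' differences between groups was not tested.

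**Figure D5:**
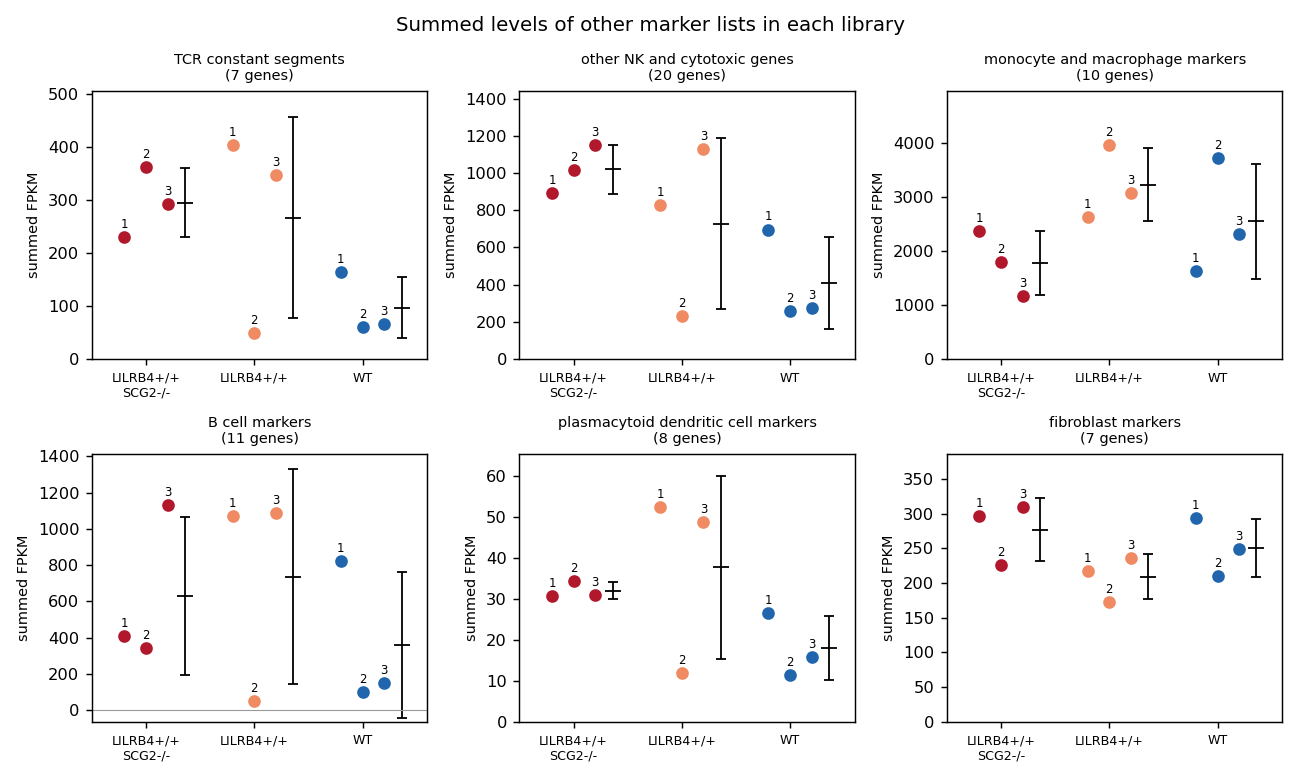
Summed FPKM of 6 other marker lists in each library (points, numbered by replicate), with the mean and SD of each group (bars, n = 3). T cell receptor segments, NK, B cell and plasmacytoid dendritic cell markers are low in LILRB4+/+ replicate 2 and WT replicates 2 and 3, while monocyte and macrophage markers are highest in LILRB4+/+ replicate 2 and WT replicate 2.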

How the data were processed

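Poly-A RNA was sequenced from 9 libraries, 3 per genotype. The submitters' processing notes name HISAT2 2.0.5 and featureCounts 1.5.0-p3. Which build, annotation and strand setting they used is not given in the sources used here. Member positions equal those of GENCODE M21 (GRCm38) for 39 of 41 genes, all but Cd5 and Foxp3. The authors deposited counts for 9877 genes and FPKM values for 54532 genes. Multiplying FPKM by gene length and by a constant fitted to each library returned whole counts for 100% of values within 0.01, called recovered counts, and the deposited FPKM denominators were proportional to DESeq2-type size factors. No member value differed between the tables (0 of 351). Deposited count totals were 14501163 to 27219202. The limit that a count of 0 sets is 3 reads, or 0.107 to 0.200 CPM, which covers counting error only.

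Limma 3.58.1 (trend, robust) was fitted to log2(FPKM + 0.1) of the 19318 genes past the filter. A fold change on this scale understates the change of genes near 0.1 FPKM. The edgeR 4.0.16 quasi-likelihood test (TMM, filterByExpr with a minimum count of 10) was fitted to the deposited counts, in R 4.3.3. Both used all 9 libraries with 6 residual degrees of freedom, two-sided tests and Benjamini-Hochberg adjustment over all genes at a threshold of 0.05. Alternatives were a pseudocount of 1, no filter, recovered counts, DESeq2 1.42.0, other size factors, only the groups compared, a replicate block and each library left out. Both fits were tested on simulated data. Levels are given for all 41 members, and fold changes for 14 of them, and as a range for those past the threshold once a library was left out. The members and marker lists were chosen with earlier results of these data known. Nothing says that the libraries come from separate mice, so the p-values may reflect no more than technical spread among the 9 samples. Libraries of a group were distinct: pairs shared equal counts at no more than 0.466% of genes.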

Additional observations from a re-analysis of the deposited data

How the results depend on the processing

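Residual degrees of freedom were 6, and standard errors of the members in limma ran from 0.379 to 0.996 on the log2 scale. No alternative called a member on FPKM values in any of the 3 comparisons. With deposited counts, DESeq2 called 2 members (Il7r and Foxp3) in LILRB4+/+ against WT, where it called 6.2% of all genes higher. With 1 library left out, edgeR called 0 to 17 members there, and 0 in both other comparisons. The median log2 difference of the members then ranged from 0.42 to 1.75 (FPKM) and 0.70 to 1.86 (counts) for LILRB4+/+ against WT, from -0.28 to 1.14 and -0.22 to 0.78 for LILRB4+/+ SCG2-/- against LILRB4+/+, and from 1.22 to 2.10 and 1.12 to 2.24 for LILRB4+/+ SCG2-/- against WT. With 1 library left out, members with every library above every library of the other group were counted after seeing the data. They numbered 0 to 36 in LILRB4+/+ against WT, where 21.6% of all genes met it without LILRB4+/+ replicate 2. They numbered 26 to 40 in LILRB4+/+ SCG2-/- against WT, where 19.2% met it without WT replicate 1 and 20.4% without knockout replicate 1. In LILRB4+/+ SCG2-/- against LILRB4+/+ they numbered 1 to 7. The share of all genes was not computed for that range, so it cannot be judged. Why these values moved with single libraries was not tested.

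Of the 14 genes tested singly, Il7r, Foxp3 and Tcf7 passed on deposited counts in LILRB4+/+ against WT without LILRB4+/+ replicate 2 (edgeR adjusted p = 0.0222, 0.0356 and 0.0449). Il7r and Foxp3 also passed in that comparison with DESeq2 (adjusted p = 0.0275 and 0.0333). Alternative values from FPKM or recovered counts numbered 588 for the 14 genes. Of these, 566 kept direction and side of the threshold, and the lowest adjusted p among them was 0.0712. The 22 that turned were 5 in LILRB4+/+ against WT and 17 in LILRB4+/+ SCG2-/- against LILRB4+/+. Foxp3 turned to -0.15 with recovered counts and -0.020 with a pseudocount of 1 in the second. With 1 library left out, ranges in LILRB4+/+ against WT were -0.26 to 0.80 for Ncr1 and -0.050 to 1.23 for Klrk1. In LILRB4+/+ SCG2-/- against LILRB4+/+ they were -0.42 to 1.01 for Cd3e, -0.79 to 0.33 for Cd4, -0.31 to 1.16 for Lck, -0.53 to 0.32 for Il7r, -0.46 to 0.80 for Tcf7, -0.029 to 1.39 for Ifng, -0.50 to 0.60 for Foxp3 and -0.17 to 1.49 for Il2rb.

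Whether the replicate numbers pair the samples cannot be told from 3 libraries per group. Deviations of same-numbered libraries correlated at -0.218 to 0.324, and those of differently numbered ones at -0.361 to 0.199. The highest values were 0.324 and 0.308, for replicates 2 and 1 of LILRB4+/+ with WT. The remaining same-numbered pairs ran from -0.218 to 0.048. With the number as a replicate block 0 members were called in each comparison by either tool, and calls over all genes in LILRB4+/+ against WT numbered 3 with limma and 1 with edgeR, against 45 and 222 without the block. With the block the median difference of the members in LILRB4+/+ SCG2-/- against LILRB4+/+ was 0.73 with counts (36 of 39 positive), against 0.28 (32 of 39) without it. Members higher at an unadjusted p under 0.05 in LILRB4+/+ SCG2-/- against WT then numbered 33 of 39 (edgeR) and 16 of 41 (limma). Over all genes these were 1023 of 9877 (edgeR) and 1323 of 19318 (limma). Fitted to these groups alone, limma had 37 of 41 members higher at an unadjusted p under 0.05, where 1541 of 18004 genes were. EdgeR then had 38 of 39 members higher, where 1105 of 9877 genes were. With all 9 libraries the members numbered 15 with limma and 9 with edgeR. With 1 library left out they ran from 0 to 39 with edgeR and from 1 to 38 with limma. The shares of all genes beside these numbers are given with that comparison above.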

Other observations

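A pair of granzyme genes outside the 41 was abundant in the sorted samples. Gzmc, a granzyme of strongly activated killer cells, stood at 464, 382 and 581 FPKM in LILRB4+/+ SCG2-/- replicates 1 to 3, at 230.2, 71.6 and 383 FPKM in LILRB4+/+ replicates 1 to 3, and at 287, 75.8 and 94.7 FPKM in WT replicates 1 to 3. Gzmd, its neighbour in the granzyme family, stood at 128, 158 and 172 FPKM in LILRB4+/+ SCG2-/-, at 74.5, 31.0 and 85.7 FPKM in LILRB4+/+ and at 119, 23.0 and 35.7 FPKM in WT libraries. For Gzmd every knockout library was above every other library, and for Gzmc all but knockout replicate 2 were, which lay close to LILRB4+/+ replicate 3. Neither gene passed the test in limma or edgeR, and both were chosen for this paragraph after their values were seen.

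Transcripts of gamma delta T cells were present at low level. Trdc, the constant segment of the delta chain, stood at 2.04, 3.02 and 3.07 FPKM in LILRB4+/+ SCG2-/-, at 5.53, 0.272 and 3.84 FPKM in LILRB4+/+ and at 4.09, 0.452 and 0.415 FPKM in WT libraries. For Trdc, WT replicate 1 was second only to LILRB4+/+ replicate 1. The gamma chain segments Tcrg-C1, Tcrg-C2 and Tcrg-C4 did not share this order. For each of them WT replicate 1 lay below every knockout library and below LILRB4+/+ replicates 1 and 3. Klra4, a lectin-like receptor gene of a family with near copies, had another order: it stood at 23.1, 21.6 and 22.3 FPKM in LILRB4+/+ SCG2-/-, at 12.8, 18.5 and 25.1 FPKM in LILRB4+/+ and at 24.6, 35.2 and 29.0 FPKM in WT libraries. Its highest library was WT replicate 2, one of the 3 libraries lowest in most of the 41 members.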
